A study of Homo sapiens with 14 samples.

Results

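The genes described here are FOXM1 and 45 other genes that act in G2 phase and mitosis. They were given by name, and each was read through every non-control probe whose transcript accession maps to it. All 46 genes had at least 1 probe, and together they had 58 of the 50599 probes on the array, of 20992 genes that an accession named. RNA of A172 and U87-MG cells, established human glioblastoma lines, was measured after electroporation with 20 pmol/ml of either a negative control siRNA without an RNA target or siLINC00152, an siRNA against exon 1 of the long noncoding RNA LINC00152. The labels put the harvest at 40 h, whereas the study's methods give a later time. There were 3 A172 arrays and 4 U87-MG arrays with each siRNA, numbered as sets that each hold a control and a siLINC00152 array. The question put to these arrays was how the RNA of each mitotic gene stood in knockdown and control cultures of either line.

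FOXM1 is a forkhead transcription factor that accumulates as cells pass through S phase and activates genes needed for G2 and mitosis, together with MYBL2 (B-Myb) and the MuvB complex. Its targets include the cyclin B kinase, Polo and Aurora kinases, centromere and kinetochore proteins, kinesins and the machinery of cytokinesis, and they are known to be expressed together in dividing cells. Glioblastomas are fast-dividing brain tumours in which FOXM1 is often highly expressed.

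Each value below is a log2 processed signal of a probe minus the log2 of the 75th percentile of its array, so that 0 is the level of that percentile and a difference of 1 is a doubling. Values of different probes are not compared with each other. The 75th percentile itself lay between 131 and 284 intensity units for A172 and, for U87-MG, between 33.0 and 69.0. The share of non-control spots well above background was 57.3% to 69.0% in A172 and 35.7% to 48.3% in U87-MG. The dimmest array was the U87-MG control of set 3, and its siLINC00152 partner was the next dimmest. Each A172 set had a slide of its own, and the 8 U87-MG arrays shared another slide, so the line and the slide cannot be told apart in the levels. The number of arrays limits the precision of every value. Of the 46 genes, 44 were bright enough to be tested in A172 and 40 in U87-MG, which means that either siRNA group of the line had 3 or more arrays with the probe well above background. HMMR and NUSAP1, proteins of the spindle, were not tested in either line, and CENPA, CENPE, CKAP2L and HJURP were not tested in U87-MG.

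The lines were also looked at through markers of cell types. VIM, NES and CD44, which mark mesenchymal and stem-like glioma cells, were well above background on all 14 arrays. The astrocyte genes GFAP and S100B were mostly absent, GFAP being above background on 1 of 6 A172 arrays and 0 of 8 U87-MG arrays and S100B on 0 of either. SOX2 was above background on 6 of 6 A172 and 0 of 8 U87-MG arrays, and OLIG2 on 6 and 3. Of 13 markers of immune, endothelial, epithelial and neuronal cells, 11 were above background on all A172 arrays and 6 on all U87-MG arrays, a mark that most spots in A172 carry. Of the 20 markers, 16 were tested in A172 and 11 in U87-MG, and by limma 0 passed without the block in either line, where 0 had an unadjusted p under 0.05. In the fit with the replicate block, 1 passed in A172 and 0 in U87-MG, and 3 and 0 had an unadjusted p under 0.05, beside 10.7% and 16.9% of all probes. The 1 that passed was CD44, which fell in the A172 sets from 3.00 to 1.72, from 1.76 to 0.66 and from 1.47 to 0.47 (fitted -1.13, adjusted p = 0.00807). In the same sets VIM was lower (fitted -0.36, 0.37) and the keratin KRT18 higher (0.64, 0.285), while the epithelial genes EPCAM and CDH1 were above background on 1 and 0 of 6 A172 arrays. In U87-MG CD44 and VIM had fitted changes of 0.12 and 0.14. These moves stand beside the FOXM1 change in A172, and their part in it was not tested.

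LINC00152, the target of the siRNA, is listed under the symbol CYTOR. The siRNA is shown because every comparison rests on it. All letters are lower case because no part of it is singled out.
siLINC00152 #1: tgcctgtcttcagatcttcacagca
On the A172 control arrays of sets 1, 2 and 3 the CYTOR probe A_24_P273143 stood at 2.63, 2.44 and 2.48, and on the siLINC00152 arrays at 0.23, -0.42 and -0.10. On the U87-MG control arrays of sets 1 to 4 it stood at 1.94, 1.83, 1.71 and 1.82, and on the siLINC00152 arrays at -1.21, -0.88, -0.74 and -0.79. Every siLINC00152 array lay below every control array of its line. In A172 LINC00152 fell by 2.61 on the log2 scale (SE 0.24, adjusted p = 0.000731, limma) and in U87-MG by 2.73 (SE 0.21, adjusted p = 4.96e-05, limma), or by 1.52 with normexp background correction. MIR4435-2HG, a near copy of that gene, has 3 probes, with fitted changes of -2.44, -1.53 and -0.31 in A172 and of -2.97, -2.08 and -0.31 in U87-MG.

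FOXM1 RNA was lower in every knockdown culture of both lines. It has a single probe, A_23_P151150, well above background on all 14 arrays. On the A172 control arrays of sets 1, 2 and 3 it stood at 1.37, 1.27 and 1.26, and on the siLINC00152 arrays at 0.54, -0.50 and -0.30. On the U87-MG control arrays of sets 1 to 4 it stood at 2.10, 2.25, 1.98 and 2.28, and on the siLINC00152 arrays at 1.1, 1.29, 1.23 and 1.1. All 7 siLINC00152 arrays lay below all control arrays of their line. The controls lay close together, with SDs of 0.06 in A172 and 0.14 in U87-MG, while the A172 siLINC00152 arrays were spread out (SD 0.56), that of set 1 being the highest. Within sets, siLINC00152 minus control was -0.83, -1.77 and -1.56 in A172 and -1.0, -0.96, -0.75 and -1.18 in U87-MG.

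In A172 FOXM1 fell by 1.39 on the log2 scale, 2.62-fold lower (SE 0.27, 95% interval -1.96 to -0.82, adjusted p = 0.0929, limma), and passed the study's thresholds of an FDR below 0.2 and a log2 change above 0.5. With the replicate block, which compares arrays within sets, the SE was 0.19 and the adjusted p 0.0185. In U87-MG the fitted change was -0.97, 1.96-fold lower (SE 0.23, 95% interval -1.47 to -0.47), with an adjusted p of 0.535 (limma) that misses the threshold. With the replicate block, FOXM1 in U87-MG passed it (SE 0.16, 95% interval -1.35 to -0.59, adjusted p = 0.0575). The difference between the lines, A172 minus U87-MG, was -0.42 (95% interval -1.18 to 0.34, adjusted p = 1, and 0.685 with the replicate block), so the lines were not shown to differ. Because the cultures were measured in bulk, fewer cells that express FOXM1 and less FOXM1 RNA per cell cannot be told apart. The other tested members, which are also expressed in G2 phase and mitosis, had a median fitted change of 0.01 in A172, and 0.06 was their median in U87-MG. The sign of the median of all tested members turned when single arrays were left out, and its bearing on the FOXM1 change was not tested.

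The call of FOXM1 in A172 without the block rested on several arrays. When a whole set was left out, the adjusted p became 1 without A172 set 2, 1 without A172 set 3, 0.335 without U87-MG set 1 and 0.306 without U87-MG set 2. When a single array was left out, it became 0.382, 0.277 and 0.41 without the A172 control of set 1, 2 or 3, and 0.529 and 0.592 without the A172 siLINC00152 array of set 2 or 3. It also missed the threshold with no filter on dim probes (0.297) and with each line fitted by itself (0.606). The fitted change stayed between -1.70 and -1.18 when arrays or sets were left out. With the replicate block, FOXM1 passed the FDR of 0.2 in both lines in all 8 other settings and in each of the 7 fits that left out a set, with adjusted p of 0.0602 or less in A172 and of 0.171 or less in U87-MG over the settings, and of up to 0.18 and up to 0.188 without a set.

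**Figure D1:**
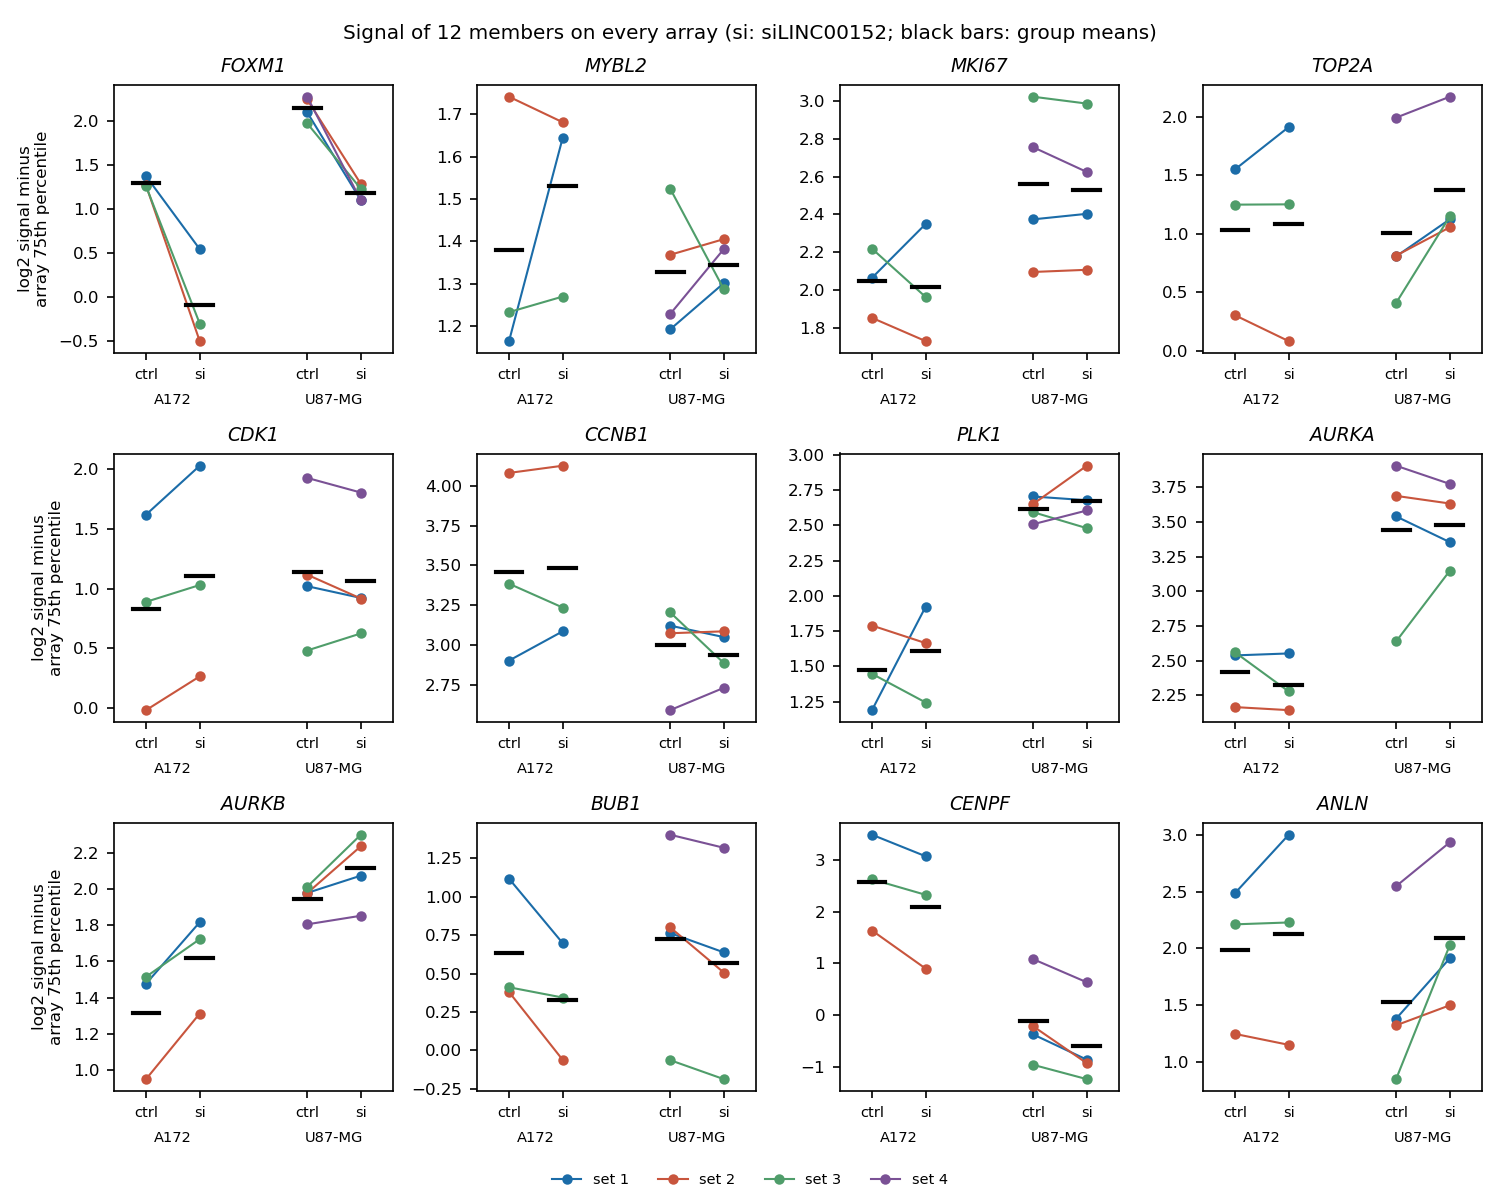
Level of 12 members on each of the 14 arrays, as log2 signal minus the array's 75th percentile, with lines joining the control and the siLINC00152 array of a set and black bars for group means. Each panel has its own scale. FOXM1 runs downward in all 7 sets, from 1.26 or more to 0.54 or less in A172 and from 1.98 or more to 1.29 or less in U87-MG, while lines of most other genes lie nearly level or cross.

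FOXM1 was the only one of the 44 tested members that passed the thresholds in A172 without the block, where 0.183% of all 28338 tested probes did. In U87-MG, 0 of 40 members passed in limma without the block, where 0.0502% of 21921 probes did, and 1 of 40, again FOXM1, had an unadjusted p under 0.05. With the replicate block, 1 of 44 members passed in A172, FOXM1, against 3.26% of all probes. In U87-MG the same fit called 2 of 40, FOXM1 downward and ANLN upward, against 4.19% of all probes. The probes behind these shares, 924 in A172 and 918 in U87-MG, changed with the sets. In A172 they were 345, 269 and 226 without A172 set 1, 2 or 3 and 1411 without U87-MG set 3, and in U87-MG they were 275, 300 and 306 without U87-MG set 1, 2 or 4 and 567 and 466 without A172 set 2 or 3. At an unadjusted p under 0.05 with the block there were 4 of 44 members in A172, 9.09%, beside 10.7% of all probes, and 8 of 40 in U87-MG, 20%, beside 16.9%. Without the block that count was 1 member in either line, beside 2.28% of all probes in A172 and 2.31% in U87-MG. The shares at an unadjusted p under 0.05 were near those of all probes.

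The other members lay around 0. Their median fitted change was 0.01 over 43 genes in A172 and 0.06 over 39 genes in U87-MG, beside 0.02 and -0.02 over all tested probes. When arrays or sets were left out, the median of the tested members, FOXM1 included, ran between -0.20, without the A172 siLINC00152 array of set 1, and 0.20, without that of set 2, in A172. In U87-MG it ran between -0.036, without the siLINC00152 array of set 4, and 0.27, without the control array of that set. Its sign therefore turned with single arrays in both lines. In A172 the fitted changes of members other than FOXM1 ran from -0.48 to 0.30 and in U87-MG from -0.48 to 0.57, and 25 of the 43 and 25 of the 39 were above 0. A p that misses the threshold does not show that a gene stayed the same, and the intervals say how far it may have moved. With the replicate block, the 95% interval lay within -0.5 and 0.5 for 24 of 44 members in A172 and 23 of 40 in U87-MG, and within -1 and 1 for 43 and 39. Without the block those counts were 0 and 2 within 0.5, and 22 and 26 within 1.

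**Figure D2:**
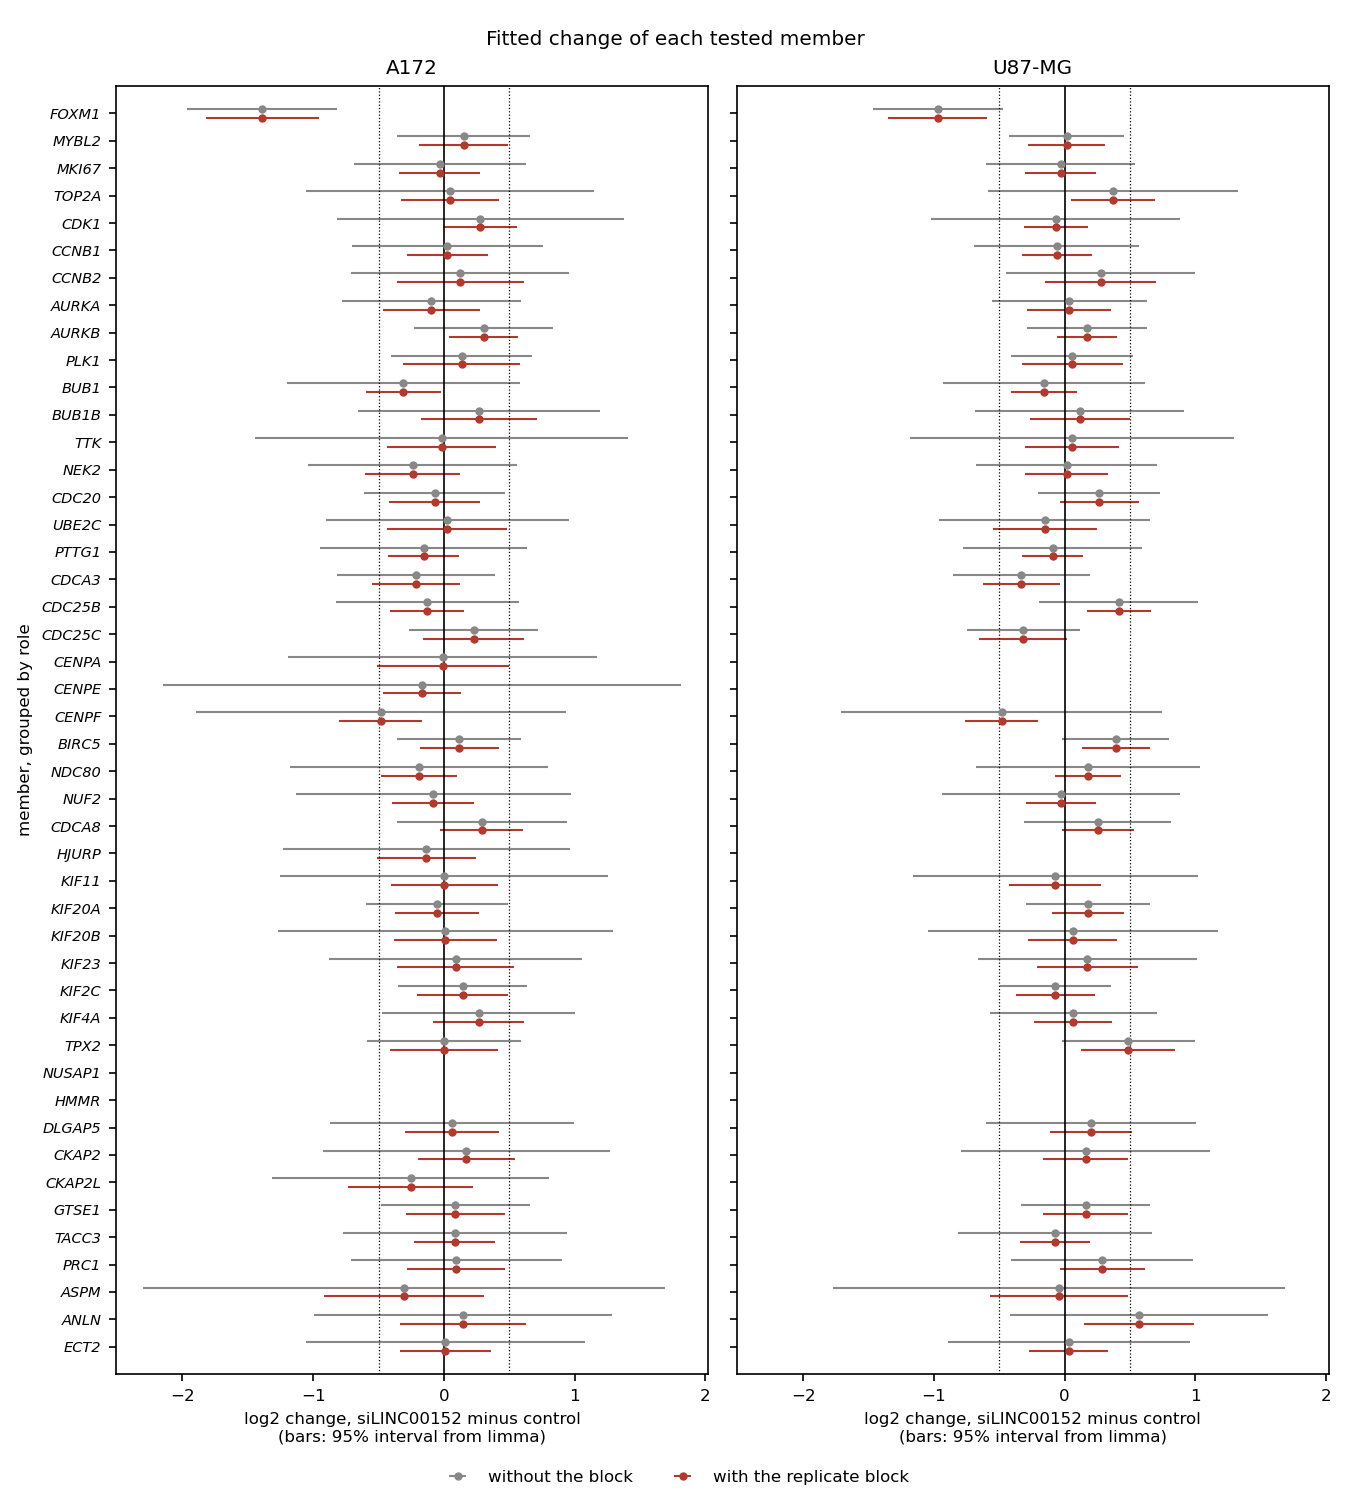
Fitted log2 change, siLINC00152 minus control, of each tested member by role in A172 and U87-MG, with 95% intervals from limma without the block (grey) and with the replicate block (red). Dotted lines mark a change of 0.5 in size. FOXM1 lies at -1.39 and -0.97 and all other members between -0.48 and 0.57.

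MYBL2, the other transcription factor among the members, did not pass the test. It stood at 1.16, 1.74 and 1.23 on the A172 control arrays and at 1.64, 1.68 and 1.27 on the siLINC00152 arrays. In U87-MG it stood at 1.19, 1.37, 1.52 and 1.23 with the control siRNA and at 1.30, 1.41, 1.29 and 1.38 with siLINC00152. The groups overlapped in both lines, and the largest step was in A172 set 1, where the siLINC00152 array was higher by 0.48. The fitted change was 0.15 in A172 (95% interval with the replicate block -0.19 to 0.49) and 0.02 in U87-MG (-0.28 to 0.31).

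Of the 10 mitotic kinases and cyclins, 0 passed the test in either line by limma, with or without the block, and at an unadjusted p under 0.05 there were 0 without the block and, with it, 2 in A172 (AURKB and BUB1) and 0 in U87-MG, beside 10.7% and 16.9% of all probes. CDK1, the kinase that drives entry into mitosis, stood at 1.62, -0.02 and 0.89 on the A172 control arrays and at 2.03, 0.26 and 1.03 on the siLINC00152 arrays. In U87-MG its control arrays gave 1.02, 1.12, 0.48 and 1.93 and its siLINC00152 arrays 0.92, 0.92, 0.62 and 1.81. By this brighter probe set 1 was high and set 2 low in A172, and set 4 was high and set 3 low in U87-MG. In every set its partners lay close to each other. The dimmer CDK1 probe, A_21_P0000076, gave other orders. Its control arrays stood at -1.07, -1.05 and -1.60 in A172 and at -0.01, -0.26, 1.56 and -0.49 in U87-MG. By the brighter probe the fitted change was 0.28 in A172, all 3 sets being higher with siLINC00152, and -0.07 in U87-MG. CCNB1, the cyclin B1 that activates CDK1, stood at 2.90, 4.08 and 3.39 on the A172 control arrays and at 3.09, 4.13 and 3.24 on the siLINC00152 arrays. Its U87-MG values were 3.12, 3.07, 3.21 and 2.59 with the control siRNA and 3.05, 3.09, 2.89 and 2.73 with siLINC00152. The groups overlapped in both lines, with fitted changes of 0.03 (95% interval with the replicate block -0.28 to 0.34) and -0.06 (-0.33 to 0.21).

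PLK1, the Polo-like kinase of spindle assembly and mitotic exit, stood at 1.19, 1.79 and 1.45 on the A172 control arrays and at 1.92, 1.67 and 1.24 on the siLINC00152 arrays. Its U87-MG levels were 2.70, 2.65, 2.59 and 2.51 and, with siLINC00152, 2.68, 2.92, 2.48 and 2.60. The groups overlapped, and the A172 sets moved both ways, by 0.73, -0.12 and -0.20. AURKA, the Aurora kinase of centrosomes and spindle poles, stood at 2.54, 2.17 and 2.56 on the A172 control arrays and at 2.55, 2.14 and 2.28 on the siLINC00152 arrays. U87-MG arrays had it at 3.54, 3.69, 2.64 and 3.91 and at 3.35, 3.63, 3.15 and 3.77, with the control of set 3 the lowest. Its groups overlapped in both lines, and the fitted changes were -0.10 and 0.03.

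AURKB, the Aurora kinase of the chromosomal passenger complex, was higher with siLINC00152 in all 7 sets but did not pass the test. It stood at 1.48, 0.95 and 1.52 on the A172 control arrays and at 1.82, 1.31 and 1.72 on the siLINC00152 arrays. In U87-MG it stood at 1.98, 1.98, 2.01 and 1.81 and at 2.07, 2.24, 2.30 and 1.85. The groups overlapped in both lines, and the fitted changes were 0.30 in A172 (adjusted p = 0.371 with the replicate block) and 0.17 in U87-MG (0.404), by limma. BUB1, a kinase of the spindle checkpoint, was lower in all 7 sets without passing the test. It stood at 1.12, 0.38 and 0.41 on the A172 control arrays and at 0.70, -0.06 and 0.34 on the siLINC00152 arrays. Its U87-MG levels were 0.76, 0.80, -0.06 and 1.40 and, with siLINC00152, 0.64, 0.51, -0.19 and 1.32. These groups overlapped too, with fitted changes of -0.31 in A172 (adjusted p = 0.415 with the replicate block) and -0.16 in U87-MG (0.472). The other 4, cyclin B2 (CCNB2), the checkpoint kinases BUB1B and TTK and the centrosome kinase NEK2, lay between -0.24 and 0.27 in both lines.

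MKI67, the Ki-67 antigen that marks dividing cells, and TOP2A, the topoisomerase that untangles sister chromosomes, did not pass the test either. MKI67 stood at 2.06, 1.85 and 2.22 on the A172 control arrays and at 2.35, 1.73 and 1.96 on the siLINC00152 arrays. U87-MG arrays had it at 2.37, 2.10, 3.02 and 2.76 and at 2.40, 2.11, 2.99 and 2.62. Within sets the U87-MG partners differed by between -0.13 and 0.03 while sets differed from each other by more, and the fitted change was -0.03 in both lines (95% intervals with the replicate block -0.34 to 0.28 and -0.30 to 0.24). TOP2A stood at 1.55, 0.30 and 1.25 on the A172 control arrays and at 1.91, 0.08 and 1.25 on the siLINC00152 arrays. In U87-MG it stood at 0.80, 0.81, 0.41 and 1.99 and at 1.12, 1.05, 1.15 and 2.17. All 4 U87-MG sets were higher with siLINC00152, with overlapping groups, a fitted change of 0.37 and an adjusted p of 0.249 with the replicate block (limma), and in A172 the fitted change was 0.05.

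The phosphatases CDC25B and CDC25C, which remove the inhibitory phosphates from CDK1, did not pass the test. CDC25B, singled out after its values were seen, was lower in all 3 A172 sets and higher in all 4 U87-MG sets. Within sets it differed by -0.07, -0.03 and -0.28 in A172 and by 0.42, 0.40, 0.60 and 0.23 in U87-MG. The fitted changes were -0.13 in A172 and 0.41 in U87-MG, the latter with an adjusted p of 0.134 with the replicate block (limma) and short of the minimum change of 0.5. The difference between the lines, -0.54, had an adjusted p of 1 without the block and 0.432 with the replicate block (limma). CDC25C was above every control array on all 3 A172 siLINC00152 arrays, the only member to be so in A172, with a fitted change of 0.23. FOXM1 was the only member below them, so 2 of 44 members did not overlap between groups in A172, where 7.09% of all probes did not.

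Of the 4 genes around the anaphase promoting complex, 0 passed the test in limma in either line with or without the block. They are its activator CDC20, its ubiquitin-conjugating enzyme UBE2C, its substrate securin (PTTG1) and CDCA3, a trigger of mitotic entry. At an unadjusted p under 0.05 there were 0 without the block and 1 with it, CDCA3 in U87-MG, where 16.9% of all probes had such a p. CDCA3 was lower in all 4 U87-MG sets, by -0.26, -0.12, -0.51 and -0.43 (fitted -0.33, adjusted p = 0.252 with the replicate block), and its fitted change in A172 was -0.22. CDC20 differed by 0.25, -0.15 and -0.31 in the A172 sets and by 0.12, 0.18, 0.55 and 0.20 in the U87-MG sets, with fitted changes of -0.07 and 0.26. UBE2C had fitted changes of 0.02 and -0.15, and PTTG1 had -0.15 and -0.09.

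Of the 8 genes of the centromere, the kinetochore and the passenger complex, 8 were tested in A172 and 5 in U87-MG, and 0 passed in limma with or without the block. Without the block 0 had an unadjusted p under 0.05. With it there were 1 of 8 in A172 (CENPF) and 2 of 5 in U87-MG (CENPF and BIRC5), beside 10.7% and 16.9% of all probes. CENPF, a large kinetochore protein that accumulates in G2, is given in full because of its values. Its brighter probe A_23_P401 stood at 3.49, 1.63 and 2.62 on the A172 control arrays and at 3.07, 0.90 and 2.32 on the siLINC00152 arrays. Its U87-MG levels were -0.37, -0.22, -0.96 and 1.08 and, with siLINC00152, -0.86, -0.93, -1.24 and 0.63. All 7 sets were lower with siLINC00152, by -0.42, -0.74 and -0.30 in A172 and by -0.49, -0.71, -0.28 and -0.45 in U87-MG, though the groups overlapped because sets differed by more than that. The fitted change was -0.48 in both lines, short of the minimum of 0.5, with adjusted p of 0.209 and 0.127 with the replicate block (limma), and 1 in both lines without it. With that block it passed in A172 under quantile normalization (-0.53, adjusted p = 0.188), with the deposited values (-0.53, 0.197) and with normexp background correction (-0.51, 0.00364), and in U87-MG without set 3 (-0.55, 0.13). The dimmer CENPF probe, A_24_P96780, had fitted changes of -0.28 and -0.01.

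BIRC5 (survivin), a passenger protein that also inhibits apoptosis, was higher in all 4 U87-MG sets, by 0.38, 0.28, 0.69 and 0.22. Its siLINC00152 arrays lay above all U87-MG controls, from 3.15 to 3.60 against 2.78 to 3.11, with a fitted change of 0.39 and an adjusted p of 0.168 with the replicate block (limma), short of the minimum change, and its fitted change in A172 was 0.12. BIRC5 and FOXM1 were the 2 of 40 members whose groups did not overlap in U87-MG, where 2.8% of all probes did not. The remaining genes of this group lay between -0.19 and 0.29 in A172 and between -0.03 and 0.25 in U87-MG. They are CDCA8 (borealin), the outer kinetochore proteins NDC80 and NUF2, and, tested in A172 only, the centromeric histone CENPA, its chaperone HJURP and the motor CENPE.

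The 6 kinesins also lay around 0. KIF11 separates the spindle poles, KIF20A, KIF20B and KIF23 act at the spindle midzone and in cytokinesis, KIF2C takes microtubules apart at kinetochores, and KIF4A acts on chromosomes and the midzone. In A172 their fitted changes ran from -0.05 to 0.27, and in U87-MG from -0.07 to 0.18. By limma 0 passed in either line with or without the block, and 0 had an unadjusted p under 0.05 in either fit. Of all probes in A172 and U87-MG, 0.183% and 0.0502% passed without the block and 3.26% and 4.19% with it. An unadjusted p under 0.05 was found for 2.28% and 2.31% without the block and for 10.7% and 16.9% with it.

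Of the 10 spindle microtubule proteins, 8 were tested in A172 and 7 in U87-MG, and in limma 0 passed with or without the block. At an unadjusted p under 0.05 there were 0 without the block and, with it, 0 in A172 and 1 in U87-MG, TPX2, beside 10.7% and 16.9% of all probes. TPX2, the activator of AURKA on spindles, differed by 0.28, 0.28, 0.38 and 1.00 in the U87-MG sets and by 0.30, -0.15 and -0.15 in the A172 sets. Its fitted change of 0.49 in U87-MG (adjusted p = 0.197 with the replicate block) was short of the minimum change, and in A172 it was 0.00. With the block and normexp background correction TPX2 passed in U87-MG (0.53, adjusted p = 0.0176), and so did its difference between the lines (-0.53, adjusted p = 0.151). In A172 the tested genes of this group lay between -0.31 and 0.17, and in U87-MG those other than TPX2 lay between -0.07 and 0.29. These are PRC1, which bundles midzone microtubules, ASPM at the spindle poles, TACC3, DLGAP5 and GTSE1 on spindle microtubules, CKAP2 and, in A172 only, CKAP2L.

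ANLN (anillin), which ties actin and septins to the cleavage furrow, was the member with the highest fitted change in U87-MG. It stood at 1.38, 1.32, 0.85 and 2.55 on the U87-MG control arrays and at 1.91, 1.5, 2.03 and 2.93 on the siLINC00152 arrays. In A172 it stood at 2.49, 1.25 and 2.21 with the control siRNA and at 3.00, 1.15 and 2.23 with siLINC00152. All 4 U87-MG sets were higher with siLINC00152, by 0.53, 0.18, 1.18 and 0.39, and the groups overlapped in both lines. The fitted change in U87-MG was 0.57 (95% interval with the replicate block 0.15 to 0.99), with an adjusted p of 1 without the block and 0.196 with the replicate block (limma), so that only the paired fit called it. That call was lost without any 1 of the sets, the adjusted p being 0.216, 0.272 and 0.296 without A172 set 1, 2 or 3, and 0.339, 0.264, 0.321 and 0.294 without U87-MG set 1, 2, 3 or 4. The fitted change was 0.37 without U87-MG set 3, 0.34 and 0.91 without the control array of set 3 or 4 and 0.29 without the siLINC00152 array of set 4. The call held in 2 of 8 other settings. ECT2, which switches on RhoA at the furrow, had fitted changes of 0.01 and 0.03.

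**Figure D3:**
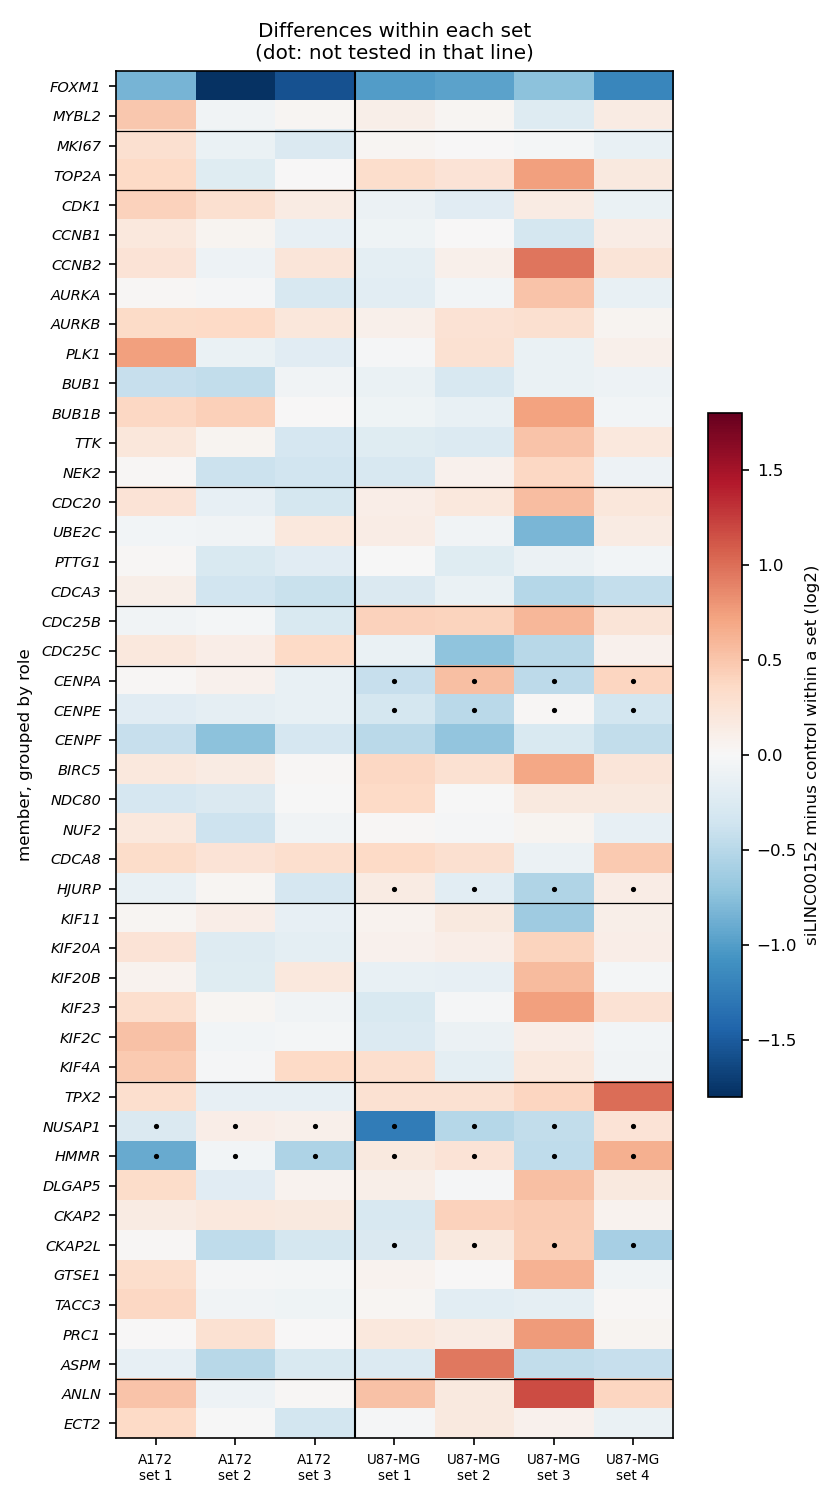
Difference between the siLINC00152 and the control array of each set, in log2 units, for all 46 members grouped by role (blue lower, red higher with siLINC00152). Dots mark members not tested in a line. The FOXM1 line is blue in all 7 columns, from -0.75 to -1.77, and U87-MG set 3, the set with the dimmest arrays, holds many of the stronger red cells, among them ANLN at 1.18.

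Sets differed in the level of most members. In A172 the range over the 3 control arrays was larger than the fitted change in 41 of 44 members, the exceptions being FOXM1, CDC25C and KIF2C, and in U87-MG in 37 of 40, the exceptions being FOXM1, CDC25C and BIRC5. The median range over control arrays was 0.89 in A172 and 1.19 in U87-MG, beside 0.79 and 1.06 over all tested probes. The median deviation of the members without FOXM1 from the mean of the line was 0.31, -0.21 and 0.01 on the A172 control arrays of sets 1 to 3 and 0.58, -0.30 and -0.07 on the siLINC00152 arrays. In U87-MG it was -0.12, -0.06, -0.46 and 0.39 on the control arrays and -0.07, -0.12, -0.04 and 0.43 on the siLINC00152 arrays. By this median A172 set 1 and U87-MG set 4 were high and A172 set 2 was low with both siRNAs, while in U87-MG set 3 the control array alone was low. Several members ran the other way by their brightest probe. In A172, CCNB1, PLK1, MYBL2, CDC20, UBE2C, CDCA3, KIF20A, KIF2C and TACC3 had their lowest control level in set 1. In U87-MG, TACC3, PTTG1, UBE2C, MKI67, CDCA3, KIF4A, KIF2C, CCNB1, AURKB, CDCA8 and MYBL2 had their highest control level in set 3. Other probes of CCNB1 and MKI67 had other orders. By A_23_P122197, CCNB1 had its highest A172 control level in set 1 (3.28) and its lowest U87-MG control level in set 3 (1.52). In U87-MG control set 3, MKI67 was lowest by A_24_P346855 (-3.23), and by A_33_P3374205 it was highest in set 4 (2.43).

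The deviations of FOXM1 were 0.77, 0.66 and 0.65 on the A172 control arrays and -0.06, -1.11 and -0.91 on the siLINC00152 arrays. In U87-MG they were 0.44, 0.58, 0.31 and 0.61 and then -0.56, -0.38, -0.43 and -0.56. FOXM1 was below the mean of the line on every siLINC00152 array and above it on every control array. Among the A172 siLINC00152 arrays and among the U87-MG control arrays the sets had the same order for FOXM1 as for the median of the other members, and among the A172 control and the U87-MG siLINC00152 arrays they had another order. The brightness of the arrays moved partly with that median, since A172 control set 1 was the brightest A172 array, U87-MG control set 4 the brightest U87-MG array and U87-MG control set 3 the dimmest, and its part in the members' levels was not tested. The median deviation of all tested probes was -0.17, -0.17 and 0.17 on these 3 arrays.

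**Figure D4:**
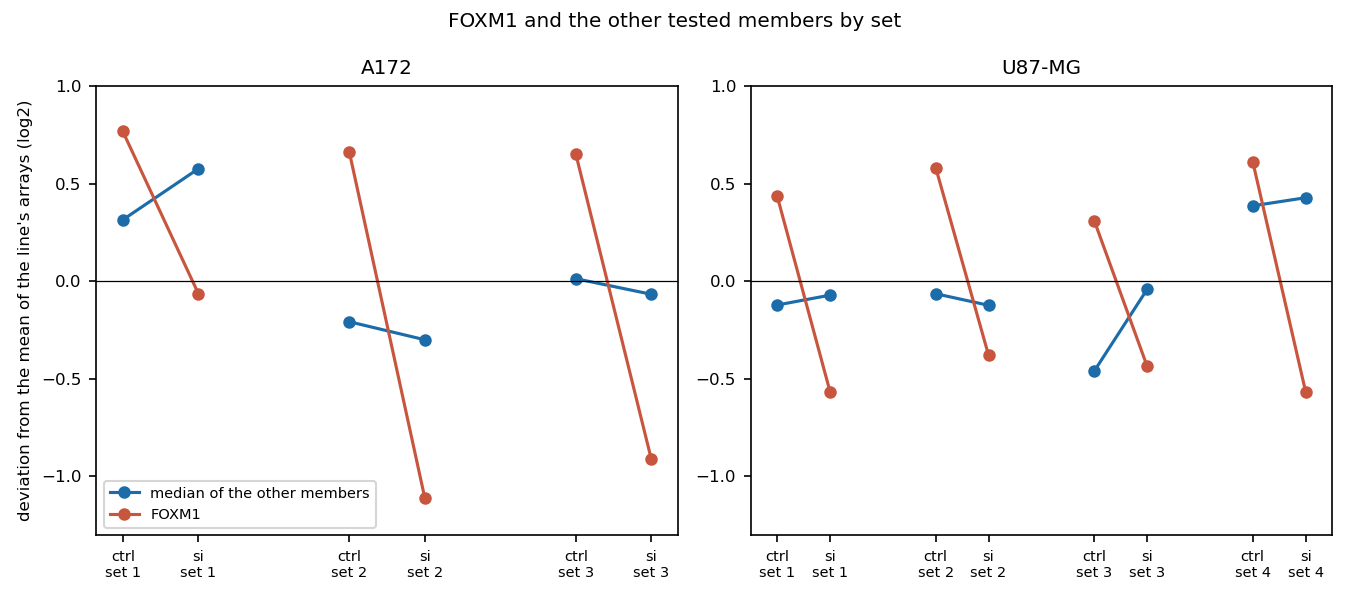
Deviation from the mean of the line's arrays, in log2 units, of FOXM1 (red) and of the median of the other tested members (blue), set by set, with lines from control to siLINC00152. The red lines run downward in all 7 sets, while the blue lines stay between -0.46 and 0.58 and run both ways.

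Counted by direction, 7 members were lower in all 3 A172 sets and 8 were higher, 15.9% and 18.2% of 44, beside 16.9% and 19.4% of all probes. In U87-MG 5 were lower in all 4 sets and 9 were higher, 12.5% and 22.5% of 40, beside 13.9% and 16.6%. FOXM1, BUB1 and CENPF were lower in all 7 sets of both lines, CENPF by its brighter probe only. The dimmer CENPF probe was higher by 0.83 in U87-MG set 3. AURKB, BIRC5 and PRC1 were higher in all 7 sets, PRC1 by as little as 0.003 and 0.006 in A172 sets 1 and 3. The share of all probes that moved one way in all 7 sets was not computed.

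Between the lines, 0 of the 40 members tested in both differed in their response by limma without the block, where 0.00945% of 21163 probes did, and 0 with the replicate block, where 0.421% did. At an unadjusted p under 0.05 there were 0 by limma without the block, beside 0.789% of all probes, and 2 by limma with it, CDC25B and CDC25C, beside 8.31%. CDC25C was above background on 3 of 4 U87-MG control arrays and on 1 of 4 siLINC00152 arrays, so it was tested there through its control group alone, and its difference between the lines rests on levels near background. The lowest adjusted p among members was 1 without the block and 0.432 with it. The median difference, A172 minus U87-MG, was -0.06.

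For 11 members several probes were present, and probes of a gene did not always give like values. CDK1 had fitted changes of 0.28 by its brighter and -0.19 by its dimmer probe in A172, and of -0.07 and -0.30 in U87-MG. CCNB1, given above by the probe A_33_P3401621, had 0.03 in A172 and -0.06 in U87-MG. By its other probe, A_23_P122197, it had -0.11 and 0.16. CKAP2 had 0.17 and -0.17 in A172 and 0.16 and -0.07 in U87-MG. ASPM, whose brighter probe gave -0.04 in U87-MG, had -0.70 by the probe A_23_P52017 (adjusted p = 0.147 with the replicate block, past the thresholds, and 1 without it, limma). That probe was above background on 3 of 4 control and 1 of 4 siLINC00152 arrays, so it was tested through its control group alone. The brighter ASPM probe was above background on 2 of 4 control and 3 of 4 siLINC00152 arrays of U87-MG. It was tested there through its siLINC00152 group alone, and its -0.04 also rests on levels near background. MKI67 had -0.03, -0.17 and -0.21 in A172 and -0.03, 0.09 and -0.02 in U87-MG by its 3 probes. PLK1 had 0.14 and 0.12 in A172 and 0.06 and -0.06 in U87-MG.

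The promoters of the members are shown for what they share in sequence. A window of 250 bases before and 50 bases after the start of transcription was found for 40 of the 46 members. These came from the promoter table used here, on GRCh38.p14, with 50 windows because 6 genes have several starts. That promoter table lacked FOXM1, AURKA, TPX2, BIRC5, TTK and UBE2C, although RefSeq accessions named these genes on the array. TTTGAA, the usual core of the cell cycle genes homology region through which MuvB binds, was present on either strand in 31 of 50 windows, 62%, and in 15.2% of all 35116 windows. TTTAAA, a variant of it that is its own reverse complement, was present in 32% of the members' windows and in 12.2% of all. Either form was present in 76% and 24.0%. CCAAT, the box bound by NF-Y, was present in 72% and 34.6%. TAAACA, the core read by forkhead factors, was present in 8% and 12.3%. A match is a description of the letters and neither a binding site nor a cause.

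The promoters of CCNB1 (chr5:69166900-69167199), PLK1 (chr16:23678639-23678938), CDC20 (chr1:43358731-43359030) and ANLN (chr7:36389612-36389911) are printed as examples of these shared letters, with ANLN as the member that only the paired fit called. All lie on the plus strand of GRCh38.p14, and capitals mark both forms of the homology region (TTTGAA, or TTCAAA on the other strand, and TTTAAA) and the CCAAT box where they were found.
CCNB1: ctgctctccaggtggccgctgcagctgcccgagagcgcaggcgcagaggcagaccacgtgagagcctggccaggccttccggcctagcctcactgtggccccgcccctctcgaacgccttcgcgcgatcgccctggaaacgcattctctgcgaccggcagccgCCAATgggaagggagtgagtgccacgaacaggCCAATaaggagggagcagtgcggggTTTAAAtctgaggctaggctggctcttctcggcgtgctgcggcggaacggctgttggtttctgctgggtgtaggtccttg
PLK1: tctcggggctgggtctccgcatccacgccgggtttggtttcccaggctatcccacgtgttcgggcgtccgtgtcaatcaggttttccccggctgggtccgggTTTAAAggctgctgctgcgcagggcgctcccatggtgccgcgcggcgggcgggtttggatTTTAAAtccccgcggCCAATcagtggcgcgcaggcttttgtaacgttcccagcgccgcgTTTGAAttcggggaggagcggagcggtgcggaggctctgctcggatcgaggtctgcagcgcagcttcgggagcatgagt
CDC20: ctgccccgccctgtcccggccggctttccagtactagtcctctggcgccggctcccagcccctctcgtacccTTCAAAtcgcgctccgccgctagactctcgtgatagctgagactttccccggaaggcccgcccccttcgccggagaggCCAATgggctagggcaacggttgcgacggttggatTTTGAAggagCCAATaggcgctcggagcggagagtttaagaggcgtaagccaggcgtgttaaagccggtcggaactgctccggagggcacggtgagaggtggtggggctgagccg
ANLN: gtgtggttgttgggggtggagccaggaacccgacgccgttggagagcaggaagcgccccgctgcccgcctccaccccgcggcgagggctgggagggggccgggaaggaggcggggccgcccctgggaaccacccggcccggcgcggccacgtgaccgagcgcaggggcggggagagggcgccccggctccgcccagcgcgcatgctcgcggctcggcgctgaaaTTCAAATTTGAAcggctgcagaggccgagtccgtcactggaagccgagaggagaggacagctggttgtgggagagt
CCNB1 has CCAAT at -87 and -55 and TTTAAA at -30, counted in bases from the start of transcription. PLK1 has TTTAAA at -148 and -88, CCAAT at -73 and TTTGAA at -29. CDC20 has CCAAT at -100 and -55, TTTGAA at -65 and, on the other strand, at -178. ANLN has TTTGAA on either strand, at -26 and -20, and no CCAAT. Beside these letters, siLINC00152 minus control was 0.03, 0.14, -0.07 and 0.15 in A172 and -0.06, 0.06, 0.26 and 0.57 in U87-MG for the 4 genes in that order.

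**Figure D5:**
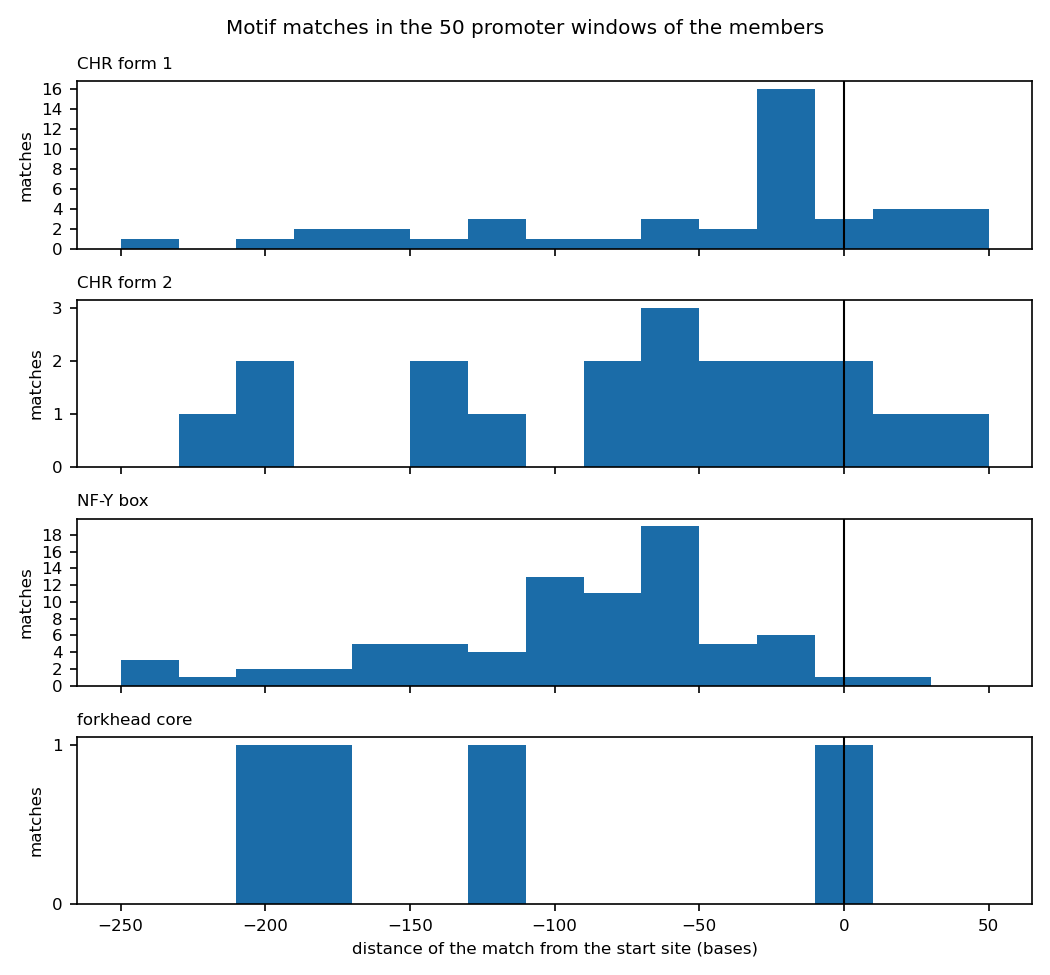
Number of matches by distance from the start of transcription, in bases, over the 50 promoter windows of the members, for TTTGAA (CHR form 1), TTTAAA (CHR form 2), CCAAT (NF-Y box) and TAAACA (forkhead core). The first form gathers just before the start, CCAAT lies farther upstream, and TAAACA is present in only 4 windows.

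Other genes of the same and neighbouring pathways were read from 4 loosely named lists. None of these had a gene that passed by limma without the block, and the counts at an unadjusted p under 0.05 in that fit were 1 of 50 in A172 and 1 of 43 in U87-MG for other G2/M and mitotic genes, 0 of 11 and 0 of 10 for the DREAM and MuvB complex, 0 of 15 and 0 of 11 for brakes on mitotic entry, and 3 of 30 and 0 of 32 for DNA replication and S phase, beside 2.28% of all probes in A172 and 2.31% in U87-MG. With the replicate block, 2 of 50 other mitotic genes passed downward in A172, beside 3.26% of all probes in either direction, and in U87-MG 1 of 43 passed upward and 1 downward, beside 4.19%. At an unadjusted p under 0.05 with the block there were 7 of 50 in A172, 4 of them upward, beside 10.7% of all probes, and 13 of 43 in U87-MG, 9 of them upward, beside 16.9%. The median fitted change of this list was 0.11 in A172 and 0.15 in U87-MG. HMGB2, a chromatin protein of dividing cells, was lower in all 7 sets, with fitted changes of -0.53 in A172 (adjusted p = 0.17 with the replicate block) and -0.60 in U87-MG (0.0833). Its call was lost in A172 without any A172 set (0.373, 0.67 and 0.416) and without U87-MG set 1, 2 or 4 (0.251, 0.252 and 0.258), and in U87-MG without U87-MG set 1, 2 or 4 (0.217, 0.242 and 0.234). In A172 its fitted change was -0.21 without the control array of set 1 and -0.93 and -0.19 without the siLINC00152 array of set 1 or 2, and in U87-MG it was -0.40 without the siLINC00152 array of set 3. SPC24, a kinetochore protein of the NDC80 complex, was lower in all 3 A172 sets, by -0.71 (0.0814 with the replicate block, but 0.422 and 0.453 without A172 set 2 or 3). CENPN, which binds centromeric nucleosomes, was higher in all 4 U87-MG sets, by 0.67 (0.171 with the replicate block, but 0.213 to 0.314 without any 1 of the 7 sets), and its fitted change was 0.41 without U87-MG set 3 and 0.29 without the control array of that set. In the fit with the block, normexp background correction gave HMGB2 -0.44 in A172 and -0.26 in U87-MG and CENPN 0.20, none of them called. CENPN also missed the threshold with quantile normalization (0.229), the deposited values (0.251) and each line fitted by itself (0.238). With no filter on dim probes the adjusted p was 0.352 and 0.234 for HMGB2 in A172 and U87-MG, 0.21 for SPC24 and 0.359 for CENPN.

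The list of the DREAM and MuvB complex also holds NFYA, NFYB and NFYC, the genes of NF-Y. In it, 0 of 11 genes passed in A172 and 0 of 10 in U87-MG with the replicate block as well. At an unadjusted p under 0.05 with the block there were 2 and 0, beside 10.7% and 16.9% of all probes, and the median changes were -0.04 and 0.06. The list of brakes on mitotic entry is not confined to that step and also holds CDKN1B, CDKN1C, CDKN2A, CDKN2B, CDKN2C and CDKN2D. With the replicate block, 1 of its 15 tested genes passed downward and 1 upward in A172. In U87-MG 1 of 11 passed downward, beside 3.26% of all probes in A172 and 4.19% in U87-MG. The counts at an unadjusted p under 0.05 with the block were 4 and 3, beside 10.7% and 16.9%. CDKN1A, the p21 inhibitor of cyclin-dependent kinases, stood at 2.43, 1.77 and 2.78 on the A172 control arrays and at 1.95, 0.96 and 1.33 on the siLINC00152 arrays. U87-MG arrays had it at 3.57, 3.22, 4.82 and 3.05 and at 2.70, 2.49, 4.07 and 2.29. All 7 sets were lower with siLINC00152 although the groups overlapped, and the fitted changes were -0.91 (adjusted p = 0.0731 with the replicate block) and -0.78 (0.0825), by limma. The call was lost in A172 without A172 set 2 or 3 (0.312 and 0.339), and in U87-MG without U87-MG set 1, 2 or 4 (0.249, 0.224 and 0.221). Its U87-MG fitted change was -0.39 without the control array of set 3 and -1.17 without the siLINC00152 array of that set. CCNG1, a cyclin induced by p53, was higher in all 3 A172 sets, by 0.54 (0.135 with the replicate block), a call lost without A172 set 1, 2 or 3 (0.402, 0.546 and 0.451) and without U87-MG set 1 or 2 (0.228 and 0.221). With no filter on dim probes CDKN1A missed the threshold in U87-MG (0.222) and CCNG1 in A172 (0.316), and with normexp background correction CCNG1 was 0.47, short of the minimum change.

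Among DNA replication and S phase genes with the replicate block, 3 of 30 passed upward in A172 and 3 of 32 downward in U87-MG, beside 3.26% and 4.19% of all probes, with medians of 0.18 and 0.09. The counts at an unadjusted p under 0.05 with the block were 10 of 30 in A172, all upward, 33.3% beside 10.7% of all probes, and 4 of 32 in U87-MG, 12.5% beside 16.9%. In A172 the licensing factor CDT1 was higher by 0.59 (adjusted p = 0.0944) and the origin recognition subunit ORC1 by 0.58 (0.155), in 3 of 3 sets each. Without A172 set 1, 2 or 3 the values were 0.39, 0.411 and 0.27 for CDT1 and 0.493, 0.542 and 0.475 for ORC1, and ORC1 was also lost without U87-MG set 1 or 2 (0.245 and 0.241). In U87-MG the fitted change was -0.71 (0.102) for the DNA polymerase subunit POLA1 and -0.62 (0.0908) for the licensing factor CDC6, both lower in 4 of 4 sets. Without U87-MG set 1 or 2 the adjusted p was 0.26 and 0.23 for CDC6 and 0.243 and 0.232 for POLA1, and without the siLINC00152 array of set 3 the fitted changes were -0.26 and -0.40. CDC6 was above background on 3 of 4 U87-MG control arrays and 1 of 4 siLINC00152 arrays, so it was tested through its control group alone and its fitted change rests on levels near background. POLA1 was above background on 3 of 4 of each. With normexp background correction all 4 genes missed the thresholds, at -0.11 for CDC6, -0.20 for POLA1, 0.47 for CDT1 and 0.32 for ORC1. With no filter on dim probes the adjusted p was 0.247 for CDC6, 0.256 for POLA1, 0.252 for CDT1 and 0.326 for ORC1.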

How the data were processed

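The authors deposited scanner files of 14 arrays, with a fluorescence intensity for every spot from Feature Extraction 11.5.1.1 and probe annotation on hg19. They also deposited a table of normalized log2 values. All arrays have the same distribution in that table, with a median of 4.38, and the order of its values follows the processed signal of each array. Slopes of these values on the log2 processed signal ran from 0.90 to 1.18.

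The processed intensity was put on the log2 scale and reduced by the 75th percentile of the array's non-control spots, and spots of a probe were averaged without those that the scanner software marked as outliers. The mark for signal well above background was given to a probe if at least 0.5 of its spots carried it, and testing in a line required it on 3 or more arrays of either siRNA group. Accessions were matched to genes with the RefSeq table for GRCh38.p14, and 29033 of 50599 probes had 1 gene. A gene is given by its brightest tested probe.

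The 4 groups were fitted in 1 model by limma 3.58.1 under R 4.3.3, with Benjamini-Hochberg adjustment over all tested probes of a line, an FDR below 0.2 and an absolute log2 change above 0.5. The lines were compared as an interaction in that model. The p-values rest on the spread between these cultures, taken for each probe over all 4 groups of both lines together. Without the block that spread also holds differences between sets and slides. For FOXM1 the SDs behind it were 0.06 (control) and 0.56 (siLINC00152) in A172 and 0.14 and 0.09 in U87-MG. Pairing was checked on the set numbers, where an array's deviations from its group correlated by 0.675 to 0.794 in A172 and 0.373 to 0.864 in U87-MG with its partner's, and by -0.701 to -0.0436 and -0.772 to 0.411 with those of other sets. In A172 the set is also the slide. The replicate block is therefore given beside results that it changes.

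Described on every array were LINC00152, FOXM1, MYBL2, MKI67, TOP2A, CDK1, CCNB1, PLK1, AURKA, AURKB, BUB1 and members called with or without the block, and from each other list up to 4 genes called, the smallest p with the block first. CENPF, CDC25B, CDC25C, CDCA3, CDC20, BIRC5 and TPX2 were singled out after their values were seen. The members and lists were chosen with earlier results of these data known. Alternatives concerned the normalization, the background correction (normexp with offset 50, from the median signal), the deposited values, flagged spots, the dim probe filter, fitting each line alone, the summary of a gene's probes, the FDR, the replicate block, and sets or arrays left out.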

Additional observations from a re-analysis of the deposited data

Results flagged for a closer look

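Among 112 groups of 4 U87-MG arrays over 56 genes, 11 values stood far apart from the other 3 of their group, where chance gives about 1 in 20 groups. Of these, 5 were on the U87-MG control array of set 3 and 2 on its siLINC00152 partner, the dimmest arrays. On the control array of set 3 the levels were 0.14 for CDC25B, 1.76 for PTTG1, 4.18 for TACC3, -2.05 for CENPN and -1.76 for POLA1, the last pair not above background there. On the siLINC00152 array of set 3 they were 0.74 for CDC25B and 3.13 for KIF2C. In set 4 they were 1.81 for AURKB and 0.76 for NEK2 on the control array and 2.17 for TOP2A and 2.00 for KIF23 on the siLINC00152 array. PTTG1, TACC3, KIF2C, NEK2, TOP2A and KIF23 were above the rest of their group and the others below it.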

How the results depend on the processing

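Over 44 results and 1003 alternative values, 0 changes of a named gene turned direction, 825 kept their side of the threshold or their size, 85 were no longer past the threshold, 13 newly passed it and 80 counts or medians moved. The replicate block raised the probes called to 924 (A172) and 918 (U87-MG) and the members called in U87-MG to 2, ANLN and FOXM1, the latter now past the threshold at -0.97, and it also called the dimmer ASPM probe in U87-MG. By the brightest probes it changed no other call of a member. A172 members called were 0 and FOXM1 was not called at -1.39 with no filter on dim probes and with each line fitted by itself, a fit that gives no value for the difference between lines, and A172 members called were 0 at an FDR of 0.05. A172 probes called were 133 with normexp, 34 with no filter, 33 with the filter on every array, 14 with each line fitted by itself and 27 at an FDR of 0.05. U87-MG probes called were 4 with normexp, 7 with the filter on every array and 7 at an FDR of 0.05. Leaving out sets or arrays gave 0 to 1 members called and 4 to 127 probes called in A172, 5 to 17 probes called in U87-MG, FOXM1 in A172 from -1.70 to -1.18 (-1.41 to -1.18 where it was not called), and a median of members that took either sign, from -0.20 to 0.20 (A172) and from -0.036 to 0.27 (U87-MG). The other settings combined with the block were chosen after seeing the data. With the block, A172 probes called were 587 with no filter, 1612 with each line fitted by itself, 270 at an FDR of 0.05 and 226 to 1411 with a set left out. In U87-MG they were 142 with normexp, 330 with no filter, 422 with the filter on every array, 112 at an FDR of 0.05 and 275 to 755 with a set left out. Also with the block, A172 members called were 2 with quantile normalization, normexp and the deposited values. U87-MG members called were 1 with quantile normalization, the deposited values, no filter, the filter on every array and each line fitted by itself, 0 at an FDR of 0.05, and 1 to 2 with a set left out. Members differing between the lines were 1 with normexp. Fewer arrays, or more or fewer probes tested, change adjusted p-values by construction, and otherwise the cause was not tested. A set left out of A172 leaves 2 arrays a group. The limits are signal over background, with 6 members too dim to test in U87-MG and 2 in A172, and the number of arrays.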
